A study of Mus musculus with 12 samples.

Results

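The 10 genes described here, Alb, Ttr, Fabp1, Apoa1, Apoa2, Apoc3, Fga, Fgb, Ahsg and Serpina1a, are classical hepatocyte genes, and all except Fabp1 encode proteins that the liver releases into plasma. They were chosen by symbol, with their levels on these arrays already known, so their differences between groups are given as a description, without a test. Of the 10, 9 had at least 1 probe set (the array's unit of measurement) that names no other gene, among 18194 genes measured in this way. Serpina1a is measured only by a probe set that it shares with its near-identical neighbour Serpina1d, and that value is given apart. Where a gene had several probe sets, the brightest by its mean over all 12 served as the gene's value and the others as a check.

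Mouse total RNA was hybridised to 12 Affymetrix arrays, with 6 groups of 2 arrays, lettered a and b. In the diet and genotype experiment, wild-type C57BL/6 mice (WT) and Smad3-/- mice, whose strains are labelled as C57BL/6 mixed with NIH Black Swiss, received a regular diet (RD) or a high fat diet (HFD) with 55% fat. Smad3 carries TGF-beta signals from the cell surface to the nucleus, and the knockout differs from wild type in strain background too. The antibody experiment used diet induced obese mice of strain C57J/B6, whose diet also held 55% fat. They were injected intraperitoneally, 3 times in each of 8 weeks, with the TGF-beta antibody 1D11 or with 13C4, the control IgG. The labels name neither tissue nor age, and do not say whether the 2 arrays of a group are separate animals, so the p-values below measure only the spread between arrays, which may be technical. Adipoq, the adiponectin gene that marks fat cells, lay between 13.01 and 14.18 log2 units on all 12 arrays, and 17 of 17 measured white fat genes exceeded the array median on every array.

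Hepatocytes make most of the plasma's carrier proteins, apolipoproteins and clotting factors, and few other cells transcribe these genes strongly. Their promoters are bound in liver by factors such as HNF1, HNF4 and C/EBP, and several genes lie in clusters of relatives. White fat secretes plasma proteins of its own, among them adiponectin, leptin and complement factor D, and contributes others, such as apolipoprotein E, that the liver makes too. A liver transcript in a fat sample can therefore be read only beside the genes that the tissues share and those that they do not.

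The promoters of these genes were searched for letters that liver factors are known to bind. The genes were chosen as hepatocyte genes, so nothing about the antibody is read from the matches. The sequences below, from RefSeq on GRCm38.p6, are the 150 bases before the annotated start of Alb (chr5:90460720-90460869, plus strand), Fga (chr3:83026003-83026152, plus strand), Fabp1 (chr6:71199729-71199878, plus strand), Serpina1a (chr12:103863620-103863769, minus strand) and Apoa2 (chr1:171224904-171225053, plus strand). They are shown because the first 4 hold the core of the HNF1 site, GTTAAT on either strand (capitals), within these bases, whereas Apoa2, among the members with the largest differences, does not. The search was made after the values were seen.
Alb: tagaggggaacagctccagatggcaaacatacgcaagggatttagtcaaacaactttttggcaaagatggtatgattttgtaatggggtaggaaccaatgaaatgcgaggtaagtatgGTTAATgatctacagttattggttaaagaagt
Fga: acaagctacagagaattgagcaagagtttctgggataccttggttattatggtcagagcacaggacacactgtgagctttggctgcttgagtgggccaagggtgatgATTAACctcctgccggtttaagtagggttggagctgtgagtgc
Fabp1: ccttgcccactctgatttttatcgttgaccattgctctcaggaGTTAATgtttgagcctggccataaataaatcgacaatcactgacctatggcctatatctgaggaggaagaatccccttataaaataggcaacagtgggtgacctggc
Serpina1a: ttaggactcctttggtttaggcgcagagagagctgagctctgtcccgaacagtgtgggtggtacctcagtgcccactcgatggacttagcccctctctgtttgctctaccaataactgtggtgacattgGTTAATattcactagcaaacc
Apoa2: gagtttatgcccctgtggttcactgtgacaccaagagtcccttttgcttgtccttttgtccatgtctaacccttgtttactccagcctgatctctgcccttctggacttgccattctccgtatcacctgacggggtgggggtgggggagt
The core begins 32 bases before the start in Alb, 21 in Serpina1a and 107 in Fabp1, and lies on the opposite strand in Fga, from 43 to 38 bases before it. Within 250 bases, 5 of the 8 members with an entry (Alb, Fabp1, Fga, Fgb and Serpina1a) held it, against 6.52% of 27025 promoters of the same length. The C/EBP letters TTGCNNAA stood in 5 of the 8 (Ahsg, Alb, Fabp1, Fga and Fgb) and in 9.55% of all. The CCAAT box, letters CCAAT, stood in Alb, Apoa2 and Serpina1a and in 34.5% of all, and TATAAA in Apoa2 and Fabp1 and in 13% of all. The HNF4 letters CAAAGTCCA were in 0 of the 8 and in 0.381% of all. All motifs were searched on both strands, and a match is a description of letters, not of binding. Ttr and Apoc3 had no entry.

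The deposited values are log2 values. Over probe sets, the median of an array was 6.32 to 6.39 (SD 1.64 to 1.74) in the diet and genotype experiment and 6.03 to 6.04 (SD 2.15 to 2.17) in the other, and no level is set against one of the other experiment. Pearson r between the arrays of each pair, across genes, was 0.992 to 0.996. The number of arrays limits the precision. Where a log2 difference below is followed by ±, the value after it is the standard error (SE) of a limma fit over all 12 arrays. Many differences, mostly of genes beyond the members and of further probe sets, are given without it.

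In the antibody experiment the IgG arrays carried these transcripts and the antibody arrays had far less of them. All 9 genes were lower on both antibody arrays than on either IgG array, as were 30.5% of all genes, while 29.7% of all genes were higher on both. The log2 difference, IgG minus antibody, ran from 1.36 for Fgb to 3.54 for Fabp1, with a median of 2.18, whereas the median of all 18194 genes was near 0 (antibody minus IgG, -0.0031). In limma's test over all genes at an adjusted p under 0.05, 9 of the 9 were called lower with the antibody, against 12.6% of all genes called lower and 24.3% called in either direction. Because the genes were chosen with these values in view, that count is given only as a description.

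Among the carriers, Alb encodes albumin, the main protein of plasma. It read 10.50 and 10.53 log2 units on the IgG arrays and 7.16 and 7.48 on the antibody arrays, so the groups were 3.02 units apart at their nearest. The difference of means was 3.20 ± 0.13 (SE, n = 2 a group), or 9.17-fold. Ttr encodes transthyretin, which carries thyroid hormone and the retinol-binding protein. Its values were 9.22 and 9.27 with IgG and 6.84 and 6.74 with the antibody, a difference of 2.45 ± 0.12. The SD between arrays was 0.03 with IgG for both genes, and 0.23 for Alb and 0.07 for Ttr with the antibody.

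Fabp1 encodes the liver fatty acid-binding protein, which works inside hepatocytes and enterocytes. It read 7.34 and 7.14 with IgG and 3.68 and 3.72 with the antibody, a difference of 3.54 ± 0.14 or 11.7-fold, and ranked 5th from the lowest among 18194 genes by antibody minus IgG. The antibody values lay far below the array median, where a reading may be background and a fold may be compressed. Its second probe set read 7.67 and 7.27 against 3.35 and 3.28. The relative that fat cells use, Fabp4, behaved otherwise, at 13.81 and 14.03 with IgG and 13.98 and 13.96 with the antibody, and did not pass (antibody minus IgG 0.05 ± 0.11). Of the 14 measured genes of the fatty acid and retinoid carrier family, Fabp1 included, 5 fell and 2 rose with the antibody, against 12.6% and 11.7% of all genes. Fabp5, found in fat cells and macrophages, fell by 0.98, and Fabp3, the carrier of muscle and brown fat, rose by 5.79.

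The apolipoproteins coat the lipid particles of plasma. Apoa1, the main protein of high-density lipoprotein, read 7.33 and 7.38 with IgG and 6.02 and 5.70 with the antibody, a difference of 1.49 ± 0.15. Apoa2, its partner on the same particle, read 9.52 and 9.29 against 6.05 and 6.04, a difference of 3.36 ± 0.13 or 10.3-fold. Apoc3, which slows the clearance of triglyceride-rich particles, read 7.64 and 7.65 against 5.37 and 5.64, a difference of 2.14 ± 0.16. For each of the 3 the groups did not overlap (30.5% of all genes were lower on both antibody arrays without overlap), and with the antibody only Apoa2 reached the array median. The genes next to Apoa1 and Apoc3 on chromosome 9 in the RefSeq table, Apoa4 and Apoa5, fell too, with differences of 0.91 ± 0.14 and 1.06 ± 0.14. Apoc4, a small apolipoprotein of liver, fell by 1.85, and Apoh (beta-2-glycoprotein I) by 1.16. Apoe, abundant in both liver and fat, stood at 14.05 and 14.00 with IgG and 13.99 and 14.12 with the antibody. Over the apolipoprotein list of 18 genes, which holds the 3 members, 9 were called lower and 2 higher, against 12.6% and 11.7% of all genes.

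Fga and Fgb encode chains of fibrinogen, the precursor of the clot. Fga read 6.41 and 6.03 with IgG and 3.84 and 4.26 with the antibody, a difference of 2.18 ± 0.18 or 4.52-fold. Fgb read 5.63 and 5.36 against 4.15 and 4.12, a difference of 1.36 ± 0.14. Neither was bright, since Fgb lay below the array median on all 4 arrays and Fga above it on the IgG a array alone in this experiment. The remaining chain, Fgg, lies beside them on chromosome 3 and read 5.78 and 5.86 against 3.97 and 4.31, a difference of 1.68 ± 0.15. All 3 chains were lower on both antibody arrays than on either IgG array, as were 30.5% of all genes.

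Ahsg encodes fetuin-A, a carrier of calcium phosphate. It read 6.65 and 6.23 with IgG and 4.90 and 5.05 with the antibody, a difference of 1.46 ± 0.20, so the IgG values stood only slightly above the array median. Serpina1a encodes alpha-1-antitrypsin, the plasma inhibitor of neutrophil elastase. The probe set it shares with Serpina1d read 6.77 and 6.52 with IgG and 3.92 and 3.77 with the antibody, a difference of 2.80 ± 0.16. Its neighbours Serpina1b and Serpina1c, which have probe sets of their own but are so alike that signal may be shared, read 8.41 and 8.50 against 5.28 and 4.89, and 8.03 and 8.09 against 4.98 and 4.69. The inhibitors showed the same order of groups, as did 30.5% of all genes. The 3 probe sets of the cluster differed by 2.80 to 3.37.

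**Figure D1:**
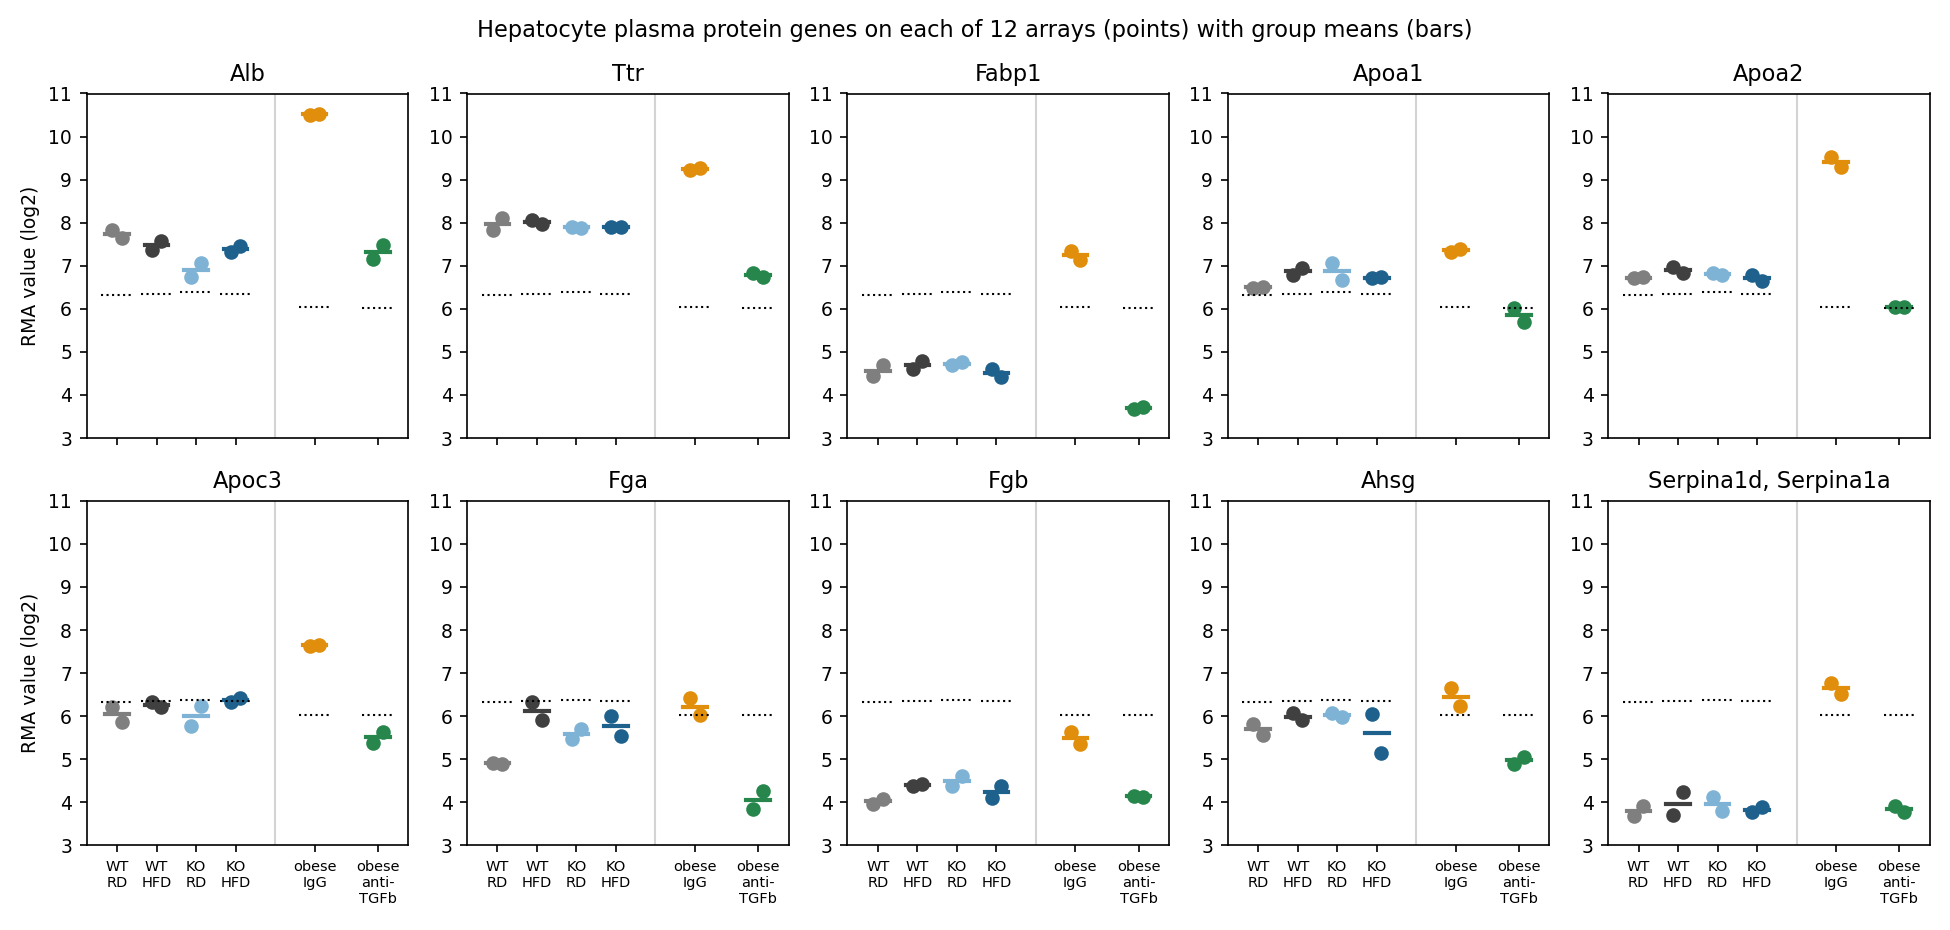
Each panel gives the log2 value of 1 gene (the last panel, the probe set shared by Serpina1d and Serpina1a) on the 12 arrays, as points by group with the group mean as a bar and the mean of the array medians as a dotted line; the vertical line parts the 2 experiments, whose levels are not compared. In the antibody experiment both IgG points lie above both antibody points in every panel, as they do for 30.5% of all genes. Alb stands at 10.50 and 10.53 against 7.16 and 7.48.

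The other probe sets of the same genes showed the same order and often a larger difference. The 4 Ttr probe sets gave 2.45, 4.88, 4.50 and 5.02, the smallest being that of the brightest probe set. The other 3 averaged 4.55, 3.31 and 3.08 with the antibody, below the array median, where a reading may be background. The 4 Apoa1 probe sets gave 1.49, 2.45, 2.65 and 2.38, again smallest for the brightest, and those of Fabp1 gave 3.54 and 4.16. The size of the difference varied between probe sets of these genes, and its direction was the same in all of them. Averaging the probe sets put Ttr at -4.21 and Apoa1 at -2.24 (antibody minus IgG).

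**Figure D2:**
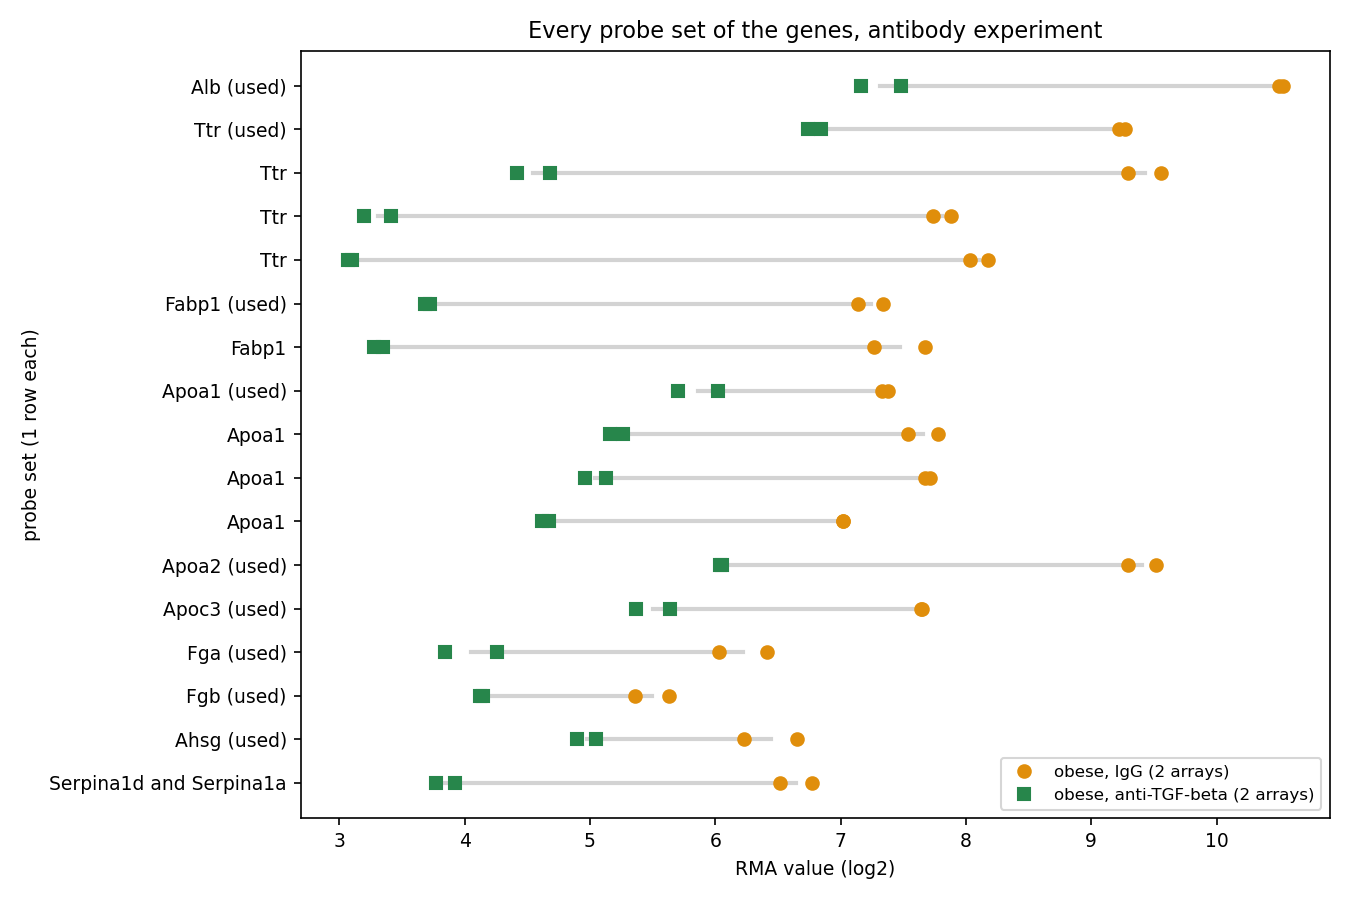
Each row is a probe set of 1 gene in the antibody experiment, with log2 values of the 2 IgG arrays (circles) and the 2 antibody arrays (squares) and a grey line between the group means; "used" marks the brightest probe set over 12 arrays. In all 17 rows the circles lie to the right of the squares, by 1.36 units for Fgb and 5.02 for a Ttr probe set.

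Other liver genes, from lists that also were written with earlier results of these data known, followed in part. Of 53 other plasma proteins of liver, 30 fell and 2 rose with the antibody (median difference, IgG minus antibody, 0.52), against 12.6% and 11.7% of all genes. Beside the Serpina1 genes, Hpx (hemopexin, which binds heme) fell by 2.62, F7 (clotting factor VII) by 2.54 and Igfals, a carrier of insulin-like growth factors, by 1.44. Hp (haptoglobin), which fat cells also make, fell by 0.91 from 14.31 and 14.23, and Rbp4, the retinol-binding protein shared by liver and fat, did not pass (-0.11 ± 0.10). Of 50 liver enzymes and transporters 26 fell and 3 rose (median 0.41). Arg1 (arginase, an enzyme of the urea cycle that activated macrophages also make), Bhmt (betaine-homocysteine methyltransferase) and Cyp3a11 (a drug-oxidising cytochrome) fell by 2.42, 2.37 and 2.17. Cps1, the first enzyme of the urea cycle, read 5.65 and 5.80 with IgG and 4.37 and 4.47 with the antibody, below the array median on all 4 arrays. Cyp2e1 and Pck1, strong in both liver and fat, rose by 0.63 and 0.68.

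The transcription factors of hepatocytes did not share this pattern as a list. Of 18 measured, 3 fell and 4 rose, against 12.6% and 11.7% of all genes, and the median difference was -0.08 (IgG minus antibody). Hnf4a, a master regulator of liver genes, read 6.95 and 6.74 with IgG and 6.51 and 6.56 with the antibody and did not pass (-0.31 ± 0.12, limma adjusted p = 0.0536), although it passed without IgG replicate b (adjusted p = 0.0345) and after dim genes were left out (adjusted p = 0.0396). The count of 3 became 1 without antibody replicate a, and was also 1 after quantile normalization over 12 arrays and with only the arrays of this experiment. Klf15, a regulator in liver, fat and muscle, rose by 1.17. Of 23 acute phase genes, some of them members, 13 fell and 5 rose, and Saa3, which fat and macrophages produce, fell by 3.19.

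Lists for other organs that transcribe some of these genes showed smaller shares. Of all genes, 12.6% were called lower with the antibody and 11.7% higher. Of 23 intestinal genes 5 fell and 1 rose (median 0.04, IgG minus antibody), among them Anpep, a surface peptidase of enterocytes that other cells also make, from 8.99 and 8.85 with IgG to 7.84 and 7.67 (by 1.16), Apoa4, also made by liver, and Fabp2, the intestinal fatty acid carrier (by 0.40, limma adjusted p = 0.045). Fabp2 and Vil1 (villin of the brush border), at 3.64 to 4.36 and 4.42 to 4.86, lay below the array median on all 4 arrays. Of 18 kidney genes 1 fell and 1 rose, of 15 genes of the exocrine pancreas 1 fell and 1 rose, and of 12 genes of choroid plexus and retina, where Ttr is also made, 0 fell and 0 rose (0 higher and 1 lower at an unadjusted p under 0.05 by limma). Clec4f, a marker of the liver's own macrophages, read 5.98 and 6.01 with IgG and 6.17 and 5.57 with the antibody. Another marker of these cells, Vsig4, was also measured but its values are not given. Nothing is therefore read about these cells.

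**Figure D3:**
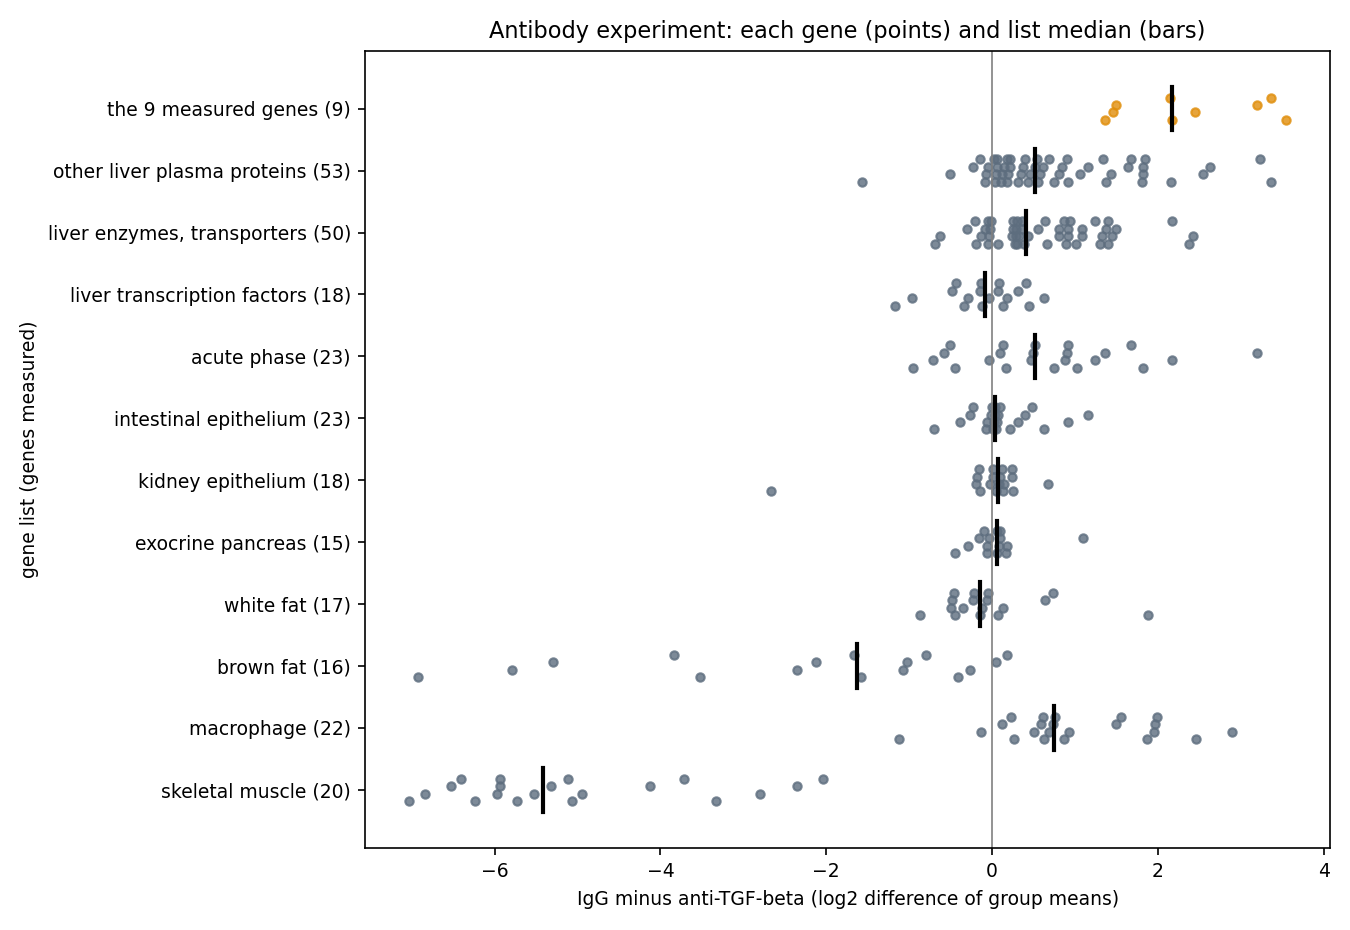
Each point is 1 gene's log2 difference, IgG minus antibody, in the antibody experiment, each row is a gene list with the number of its measured genes, and black bars are list medians. The 9 genes lie between 1.36 and 3.54 with a median of 2.18, the median is 0.52 for other liver plasma proteins and -0.08 for liver transcription factors, and skeletal muscle and brown fat lie to the left, with medians of -5.42 and -1.62.

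Markers of other cell types moved with these groups too. The counts here stand beside 12.6% of all genes called lower and 11.7% called higher with the antibody. Summed on the linear scale, the 22 macrophage genes gave 63871 and 65211 on the IgG arrays and 30411 and 31294 on the antibody arrays, and 17 of the 22 fell and 1 rose with the antibody, Itgax and Cd68 by 2.89 and 1.97. The 20 skeletal muscle genes summed to 2762 to 2875 with IgG and 44429 to 44535 with the antibody, and all 20 rose. The 16 brown fat genes summed to 2720 to 2881 against 25502 to 26017, with 13 higher and 0 lower. The 17 white fat genes, at 136342 to 138764 against 145787 to 147265, had 6 higher and 3 lower, and 22 plasma proteins of fat had 6 higher and 8 lower. Of 12 mesothelium genes 10 rose, and of 12 epididymis genes 1 rose. The 9 liver genes summed to 3411 to 3530 against 505 to 535. The 3' minus 5' difference of the actin control probe sets, which grows as RNA degrades, was 0.61 and 0.67 with IgG and 0.87 and 0.75 with the antibody. For the Gapdh control it was 0.02 and 0.10 against 0.09 and 0.14, which overlap. The part of these in the difference was not tested, and in such samples fewer cells of a type and less RNA per cell cannot be told apart.

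In the diet and genotype experiment no group stood out for all of these genes. The mean of the 9 lay between 6.01 and 6.32 on the 8 arrays, and 4 or 5 of the 9 exceeded the array median on each. Ttr spanned only 7.82 to 8.10, Apoa2 6.64 to 6.98 and Fabp1 4.42 to 4.78. Apoa1 spanned 6.49 to 7.06, Apoc3 5.78 to 6.42 and Fgb 3.97 to 4.62. Ahsg ranged from 5.14 to 6.08, its lowest value being KO_HFD array b against 6.06 on array a of that group. No member thus varied on these 8 arrays as it did between IgG and the antibody, where the 4 arrays spanned from 1.51 (Fgb) to 3.66 (Fabp1).

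Alb and Fga varied most there. Alb read 7.82 and 7.64 in wild type on the regular diet, 7.37 and 7.58 on the high fat diet, 6.75 and 7.07 in Smad3-/- on the regular diet and 7.31 and 7.45 in Smad3-/- on the high fat diet. The knockout on the regular diet was lowest, and its difference from wild type was -0.83 ± 0.13. Fga read 4.91 and 4.90, 6.34 and 5.90, 5.48 and 5.70, and 6.00 and 5.53 in the same groups, so wild type on the regular diet was lowest, by 1.22 ± 0.18 against the high fat diet and by 0.69 ± 0.18 against the knockout, 2 comparisons that share the WT_RD arrays. The values of both high fat groups overlapped for Alb. For Fga the other 3 groups overlapped in part, and wild type on the regular diet lay below all of them.

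By limma's test over all genes, diet in wild type called 1 of 9 (Fga, higher; 4.69% of all genes were called higher and 6.11% lower). Diet in the knockout called 1 (Alb, higher by 0.48 ± 0.13; 11.5% and 5.82%). That call ended without KO_RD replicate a (0.32) or KO_HFD replicate b (0.41), while Apoc3 was called without KO_RD replicate b and Ahsg without KO_HFD replicate a. Genotype on the regular diet called Fga and Fgb higher and Alb lower (8.40% and 15.6%, or 24.0% in either direction). Its split over all genes, 1528 higher to 2833 lower, became 2438 to 2572 under quantile normalization and 1124 to 3205 with arrays centred on their medians. Fgb lost its call without WT_RD replicate a or KO_RD replicate b, Fga lost it without KO_RD replicate b, and Apoa1 gained one there. Genotype on the high fat diet called 0 of 9 (4.74% and 6.05%, or 10.8% in either direction; 0 higher and 0 lower at an unadjusted p under 0.05), or Ahsg alone (-0.84) without KO_HFD replicate a, and all 9 differences lay between -0.38 and 0.10. The interaction of diet and genotype called Alb higher and Fga and Fgb lower (12.0% and 6.77%, or 18.8% in either direction). Nothing is read from these counts, since the choice of members used the same values.

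**Figure D4:**
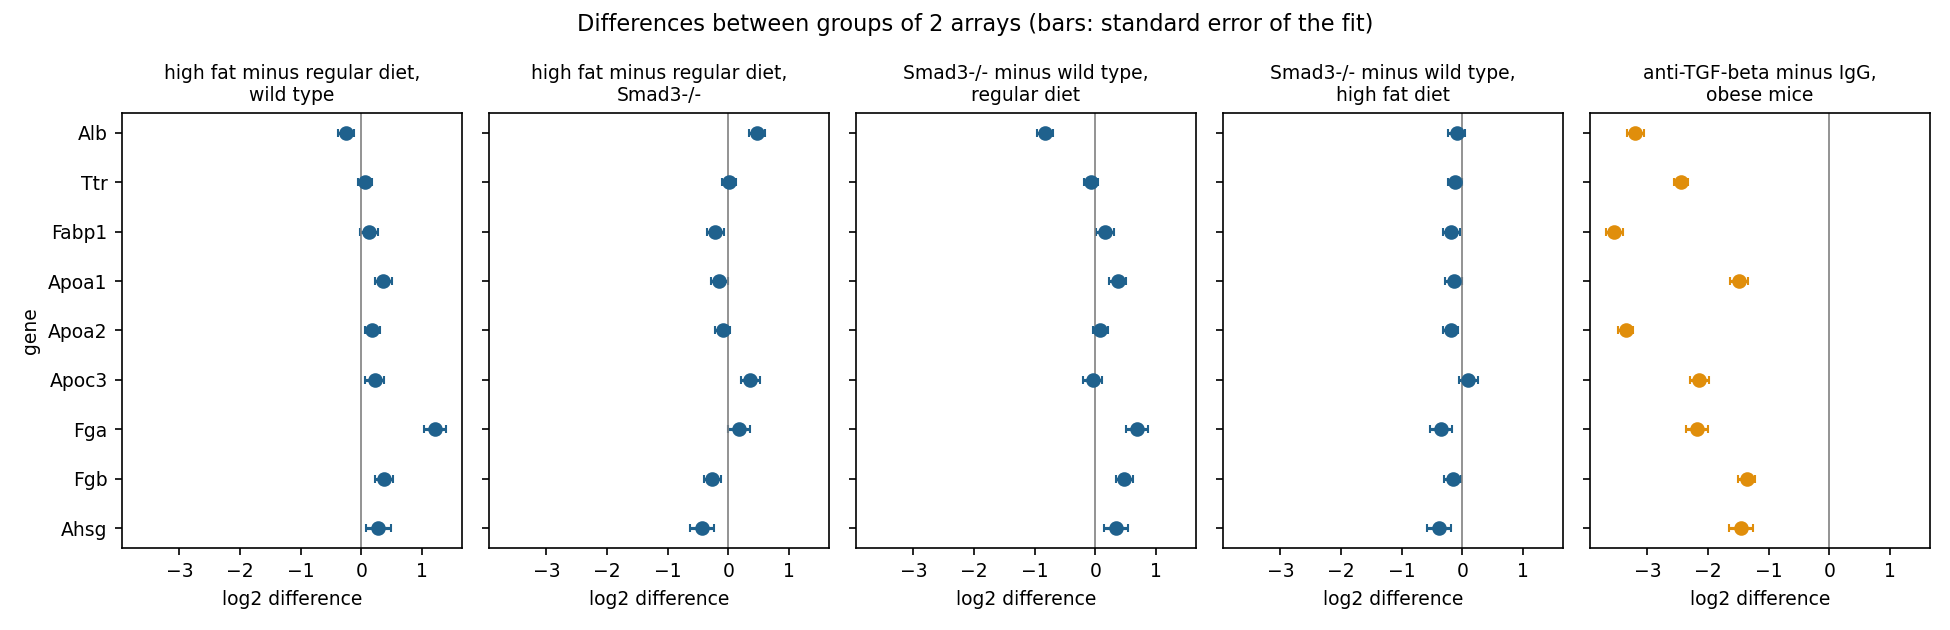
Each panel gives, for 1 comparison of groups of 2 arrays, the log2 difference of each of the 9 genes with its SE from the limma fit as a bar, on a shared axis. In the 4 diet and genotype panels the points lie between -0.83 (Alb, genotype on regular diet) and 1.22 (Fga, diet in wild type), whereas in the antibody panel they lie between -3.54 and -1.36.

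The wider liver lists were counted on these 8 arrays too, and no change of a list is read from the counts. Of all genes, 4.69% were called higher and 6.11% lower for diet in wild type, and 11.5% and 5.82% for diet in the knockout. Between genotypes the shares were 8.40% and 15.6% on the regular diet and 4.74% and 6.05% on the high fat diet. Among the 53 other plasma proteins, 5 were called higher and 2 lower for diet in wild type, 3 and 4 for diet in Smad3-/- mice, 6 and 4 between genotypes on the regular diet, and 1 and 5 between genotypes on the high fat diet. The 50 enzymes and transporters had 4 higher and 4 lower, 6 and 3, 7 and 6, and 3 and 4 in the same order. The 18 transcription factors had 0 and 1, 2 and 2, 2 and 2, and 1 and 0. The 23 acute phase genes had 4 and 4, 5 and 1, 4 and 8, and 0 and 6, the last against 4.74% and 6.05% of all genes. Larger changes than those of the members were seen in other genes. Within the acute phase list they reached 5.98 (genotype on the regular diet) and -5.71 (diet in the knockout). Examples from the other plasma proteins follow. C4bp, which encodes a complement regulator, read 4.69 and 4.79 in wild type on the regular diet, 8.81 and 9.10 on the high fat diet, 11.61 and 11.53 in the knockout on the regular diet and 7.36 and 7.74 on the high fat diet. Cpn1, a carboxypeptidase of plasma, read 5.38 and 4.97, 8.71 and 8.95, 7.60 and 7.58, and 7.52 and 7.64. Serpina1b was highest in wild type on the regular diet, at 9.88 and 10.01, and lowest in the knockout groups, at 8.19 to 8.34, while Serpina1c stayed between 7.80 and 8.39. The 12 measured epididymis genes moved over these groups too, summing to 807 to 910, 10878 to 11802, 65430 to 67280 and 5523 to 6106 on the linear scale, and their part in the values of C4bp and Cpn1 was not tested. In the antibody experiment, where those sums were 389 to 411, C4bp read 4.85 and 4.89 against 4.64 and 4.02.

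The members varied together over the 12 arrays once each experiment's mean was removed, with Pearson r between pairs from 0.76 (Alb and Ahsg) to 0.995 (Apoa2 and Fabp1), values that are dominated by the IgG and antibody arrays. Among 1716 other genes whose group means spanned at least 1 log2 unit, those most like the mean of the members were Atp6v0d2 (a proton pump subunit), Ubd (a ubiquitin-like protein), Cd300lb (a receptor of myeloid cells), Dbf4 (a regulator of DNA replication) and Oxtr (the oxytocin receptor), at r = 0.997, 0.992, 0.991, 0.991 and 0.991 over 12 arrays. Oxtr read 10.57 and 10.55 with IgG and 7.34 and 7.55 with the antibody. Tph2, a serotonin-synthesis enzyme of neurons, was the gene most like Ttr (r = 0.994), at 8.79 and 8.97 against 3.54 and 3.72. The 5 genes most like Alb held no gene of the liver lists and were led by Col5a1, a collagen (r = 0.986), Ccn5 (0.981) and Lum, the matrix proteoglycan lumican (0.976). Those most like Fgb were led by Lair1, a receptor of immune cells (0.980), and those most like Ahsg by Nkd1 (0.930). Liver genes stood among the 5 for some other members, such as Cyp3a11 for Apoa2 (r = 0.995), Serpina1c and Arg1 for Apoa1 (0.974 and 0.972) and F2 and Apoh for Fga (0.957 and 0.935). For Apoc3 they included Mki67 and Cdk1, genes of dividing cells, at 0.979 for both. With so few arrays, any gene that separates IgG from the antibody and is flat elsewhere gives a high r.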

How the data were processed

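Total RNA, 6 ug a sample per the labels' protocols, was measured on 12 Affymetrix arrays. The deposited values are log2 values that the authors made with RMA and Partek, as the submitters' processing notes name them without a version. RMA corrects background, normalizes by quantiles and summarises probes. The 2 experiments differ in medians and SDs, so comparisons stay within one.

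The platform annotation names a single gene for 34958 of 45101 probe sets, more than 1 for 932 and no gene for 9211, giving 18194 genes, of which 18032 matched the RefSeq table of GRCm38.p6 by gene ID. No per-sample column was left unused (0). The limma package (3.58.1, under R 4.3.3) fitted a mean for each group over all 12 arrays (lmFit, eBayes with an intensity trend, 6 residual and 20.4 prior degrees of freedom), with tests on both sides, p-values adjusted by Benjamini-Hochberg across the 18194 genes and called at 0.05, for 6 comparisons: diet within genotype, genotype within diet, their interaction, and the antibody. The fit was tested on simulated data.

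The members and the 18 gene lists were chosen with earlier results of these data known. Besides the members, up to 4 genes of a list with the smallest p in a comparison, its 3 with the highest mean, fixed markers and the 5 genes most like the members could be named; Apoa5, Apoc4, Apoh and F2, where outside this rule, were chosen after their values were seen. Alternatives were another summary of probe sets, scaling, a filter on dim genes (40th percentile), no trend, fewer arrays, the replicate letter as a block, and leaving out each array.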

Additional observations from a re-analysis of the deposited data

Results flagged for a closer look

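The interaction term of the fit was looked up for C4bp, Cpn1, Serpina1b and Serpina1c among the named liver genes beyond the members. For C4bp, Cpn1 and Serpina1b the diet difference differed between genotypes. These 3 were among the genes named for a small p in these data. Other named genes, such as Apoe (0.47 ± 0.15, limma adjusted p = 0.0283), passed for this term too and are not listed here. Of the 53 other plasma proteins, 3 were called higher and 4 lower for this term, and of the 50 enzymes and transporters 4 and 5. Of all genes, 12.0% were called higher and 6.77% lower. Of the 12 measured epididymis genes, 11 were called lower for this term, and their part in the values of C4bp and Cpn1 was not tested. C4bp, the complement regulator, rose with the high fat diet in wild type and fell in the knockout. The diet difference in the knockout minus that in wild type was -8.23 ± 0.23 log2 for C4bp (SE, 2 arrays a group, limma adjusted p = 1.36e-20). For Cpn1, the plasma carboxypeptidase, it was -3.66 ± 0.23 (limma adjusted p = 1.08e-12), and for Serpina1b 1.03 ± 0.19 (limma adjusted p = 0.000138). The members were chosen with their levels known, so theirs is a description with no test and no difference is read from it. It was 0.73 ± 0.19 for Alb, -1.05 ± 0.26 for Fga and -0.64 ± 0.20 for Fgb, with 18.8% of all genes called for this term. Fgb was no longer among the genes called under quantile normalization and without WT_RD replicate a (-0.58), WT_HFD replicate a (-0.66) or b (-0.62), KO_RD replicate b (-0.52) or KO_HFD replicate a (-0.50). Ahsg gained a call with the replicate block and without KO_HFD replicate a (-1.18), and Apoa1 with the mean of its probe sets and without KO_RD replicate b (-0.70).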

How the results depend on the processing

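All 94 recomputed antibody differences of the members kept their direction, from -4.21 (Ttr, mean of probe sets) to -1.09. Their median of -2.18 became -1.82 with quantile normalization over 12 arrays and -2.82 after dim genes were left out, and ran from -2.39 to -2.00 when 1 array was left out. The filter on dim genes kept 4 of the 9 members, and all 4 were called for the antibody. For diet in wild type, genotype on the regular diet and the interaction, 0, 1 and 1 were called. With the filter 11 liver plasma proteins, 8 enzymes and transporters and 7 acute phase genes were called lower, against 30, 26 and 13 without it. The filter removed list genes with means below the 40th percentile before the test. Liver transcription factors called lower numbered 1 with quantile normalization and 1 with only the antibody arrays.

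Leaving out 1 array put the count of members called at 9 for the antibody, 1 for diet in wild type, 0 to 2 for diet in the knockout, 2 to 3 for genotype on the regular diet, 0 to 1 on the high fat diet and 2 to 3 for the interaction. The lists called lower with the antibody ranged over 26 to 28 plasma proteins, 23 to 25 enzymes, 1 to 2 transcription factors and 12 to 13 acute phase genes. Over all genes the counts ran from 3157 to 3530 (antibody), 1296 (without WT_RD replicate a) to 2100 (diet in wild type), 2035 (without KO_HFD replicate b) to 3248 (diet in the knockout), 3281 to 4425 (genotype, regular diet), 1318 to 2079 (genotype, high fat) and 2736 to 3433 (interaction). With the replicate block, where the letters share only a name (deviations of same-letter arrays correlated at -0.16 to 0.17), the antibody comparison called 4412 genes against 4423. Of 660 recomputed values of other named genes, 634 kept the call or its absence, 21 lost and 5 gained the call. Among those with a call in either fit, 0 reversed direction. Where neither fit made a call, direction was not compared. Low signal limits the folds of Fabp1, Fgb, Fga and Ahsg and those of the dimmer Ttr and Apoa1 probe sets.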
